A study of Mus musculus with 6 samples.

Results

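Immediate early genes are switched on within minutes of a stimulus, before any new protein is needed, and their levels in tissue are known to respond to stress, injury and handling. The 10 genes described here were chosen by symbol from the 55802 distinct gene symbols in the files, by a rule that uses no measured value, though the set was proposed with earlier results of these data known: Fos, Fosb, Jun, Junb, Jund, Egr1, Atf3, Ier2, Ier3 and Myc. All 10 were present and all passed the filter on low counts, which 17662 genes passed. They were measured by RNA sequencing of poly(A)-selected liver RNA from male C57BL/6 mice aged 71 weeks. The control group is 3 libraries from mice on normal chow, and the other group is 3 libraries from mice on chow with polystyrene microplastic, called PS-MP. No genotype, transgene or other agent is named for either group, and the labels state neither the dose nor the particle size. The labels do not say that replicates are separate mice, so p-values measure only the spread between these samples, which may be technical.

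In resting cells the factors SRF and CREB wait on the promoters of several of these genes, and kinases of the MAP kinase pathways activate these factors. The FOS and JUN proteins pair into the transcription factor AP-1, EGR1 is a zinc finger factor, ATF3 is a stress-induced relative of AP-1 that often represses, and MYC drives growth and ribosome synthesis. Most of these messages decay quickly, so in undisturbed liver they are low, while after partial removal of the liver or at the start of an injury several of them surge.

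The libraries held 68357478 to 112566641 counts, so 1 count was worth between 0.00945 and 0.0164 CPM. CPM here means counts scaled to a common library total, with the library sizes adjusted by trimmed mean of M values (TMM). Ribosomal 18S RNA (Rn18s-rs5) took 1.15% to 11.2% of the counts on normal chow and 0.387% to 1.14% in PS-MP. Of the hepatocyte marker list, a check of the liver label, 10 of 10 genes were measured, with a summed level of 67470 to 85850 CPM on normal chow and 73560 to 93750 CPM in PS-MP.

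Stretches of the Fos, Atf3 and Jun promoters are shown because they hold the letters of an element known from these genes' own regulation. TGACGT is the core of the element bound by CREB and ATF factors, and TGACATCA is the AP-1 variant in the Jun promoter through which JUN acts on its own gene. The letters that match are in capitals, the strand is that of the gene, and the sequences are from RefSeq on build GRCm38.p6, which is not the build named for the counts. The Fos stretch is chr12:85473797-85473856 (plus strand), the Atf3 stretch chr1:191183334-191183393 (minus strand) and the Jun stretch chr4:95052234-95052293 (minus strand).
Fos: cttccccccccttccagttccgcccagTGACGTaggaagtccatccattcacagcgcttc
Atf3: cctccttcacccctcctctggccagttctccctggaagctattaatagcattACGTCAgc
Jun: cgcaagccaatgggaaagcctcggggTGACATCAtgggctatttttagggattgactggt
In Fos the match began at position -66 and in Atf3 at -8, on the opposite strand, counted from the annotated start. Promoters were at hand for 7 of the 10 genes, and the 250 bases before the start were searched on both strands. TGACGT was in 2 of the 7 (Fos and Atf3) and in 6.47% of 32851 promoters of the same length. TGACATCA was in 1 of the 7 (Jun) and in 2.93% of all. The full palindrome TGACGTCA (1.55% of all), the AP-1 letters TGACTCA (4.46% of all) and the CArG box bound by SRF (1.47% of all) were in 0 of the 7 windows, which says only that the letters are not in these bases. Such matches describe the sequence and do not show binding. Fos and Atf3, which share the TGACGT letters, are described with their levels below.

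The 10 genes differed widely in level, compared here as mean CPM per kilobase of annotated exon over all 6 libraries, with exon lengths from GENCODE M21. Jund was highest at 51.6, followed by Ier2 at 9.69 and Junb at 8.57. Ier2 (8.59 to 10.7) and Junb (7.03 to 10.2) overlapped over the libraries, so their order is not larger than their spread. Jun came next at 2.78 (1.93 to 3.47). Myc at 1.45 (0.684 to 2.22) overlapped Jun above it and Egr1 at 0.933 (0.503 to 1.35) below it. Ier3 at 0.525, Atf3 at 0.310 and Fos at 0.167 followed, each overlapping its neighbour in range. Fosb was lowest at 0.0269 and its highest library, 0.0370, lay under the lowest library of Fos, 0.0978.

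Both FOS genes were low in every library, with at most 50 counts. Fos, the prototype partner in AP-1, had 36, 14 and 29 counts on normal chow and 36, 30 and 50 in PS-MP. These counts gave 0.496, 0.230 and 0.274 CPM on normal chow and 0.437, 0.340 and 0.584 CPM in PS-MP. Control replicate 1 lay above PS-MP replicates 1 and 2, so the groups overlapped. The exact Poisson interval of the lowest library, 14 counts, was 7.65 to 23.5 counts and that of the highest, 50 counts, was 37.1 to 65.9, which covers counting error only. The fold change of Fos was 1.36 (log2 0.44, SE 0.42, edgeR quasi-likelihood adjusted p = 0.9998), with a 95% interval of 0.679 to 2.72. Fosb, its close relative, had 14, 9 and 11 counts on normal chow and 19, 17 and 12 in PS-MP, or 0.104 to 0.193 CPM against 0.140 to 0.231 CPM. The groups overlapped, and the log2 fold change was 0.35 (SE 0.46).

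The JUN genes were expressed far more than the FOS genes. Jun, whose protein can form AP-1 alone or with FOS, stood at 9.06, 11.1 and 6.15 CPM on normal chow and 8.52, 7.62 and 10.8 CPM in PS-MP. Its lowest and highest libraries were both controls, and the log2 fold change was 0.04 (SE 0.26). Junb, which can hold back JUN in some settings, stood at 16.2, 16.8 and 21.1 CPM on normal chow and 23.6, 23.5 and 17.3 CPM in PS-MP. PS-MP replicates 1 and 2 were above every control and PS-MP replicate 3 was not, so the groups overlapped (log2 fold change 0.25, SE 0.19). Jund, the member made in resting cells, stood at 98.2, 95.7 and 79.8 CPM on normal chow and 75.9, 65.0 and 101 CPM in PS-MP. Its highest library was PS-MP replicate 3 and its lowest PS-MP replicate 2 (log2 fold change -0.18, SE 0.19). The files list Junb in 2 rows, which were summed. In GENCODE M21 Junb overlaps Prdx2, Jun overlaps Junos and Jund overlaps Gm11175, each on the opposite strand. Since the strand setting of the counting is not given in the sources used here, reads of such pairs cannot be told apart. Prdx2 had 5511 to 13838 counts per library against 1023 to 2236 for Junb, while Junos had 11 to 35 and Gm11175 had 8 to 25.

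Egr1 and Myc varied most within a diet when both diets were pooled, and within PS-MP, while within control Fos varied more. Egr1, a growth and stress factor, was at 2.95, 5.17 and 5.26 CPM on normal chow and 3.44, 2.25 and 6.04 CPM in PS-MP. Both its lowest and its highest library were PS-MP, 2.68-fold apart (log2 fold change -0.19, SE 0.41, 95% interval -1.18 to 0.80). Myc was at 3.31, 2.83 and 5.41 CPM on normal chow and 1.86, 4.24 and 6.04 CPM in PS-MP. Here too the PS-MP libraries held both extremes, 3.25-fold apart, and the controls lay between them (log2 fold change 0.07, SE 0.46, 95% interval -1.04 to 1.18). For Egr1 the interval takes in a halving and for Myc it takes in a doubling or a halving, so changes of that size were not excluded.

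Atf3 and Ier3 had the smallest counts after the FOS genes. Atf3, which is induced by many kinds of cell stress, stood at 0.551, 0.624 and 0.454 CPM on normal chow and 1.11, 0.566 and 0.712 CPM in PS-MP. PS-MP replicate 1, with 91 counts, was the highest and PS-MP replicate 2 lay within the controls. Its log2 fold change of 0.55 (SE 0.34, 95% interval -0.26 to 1.36) was the largest of the 10 and its unadjusted p, 0.151, the smallest (edgeR adjusted p = 0.969). Ier3, the gene of a short-lived protein linked to cell survival, had 32, 32 and 63 counts on normal chow and 57, 63 and 51 in PS-MP. This gave 0.441, 0.526 and 0.5955 CPM on normal chow and 0.692, 0.714 and 0.5956 CPM in PS-MP. The groups therefore did not overlap, but PS-MP replicate 3 and control replicate 3 differed only in the fourth digit (log2 fold change 0.35, SE 0.27, adjusted p = 0.997). Ier2, a nuclear immediate early protein, was the steadiest, with 14.9, 14.0 and 14.4 CPM on normal chow and 15.9, 13.1 and 16.3 CPM in PS-MP (log2 fold change 0.07, SE 0.15, 95% interval -0.28 to 0.42).

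**Figure D1:**
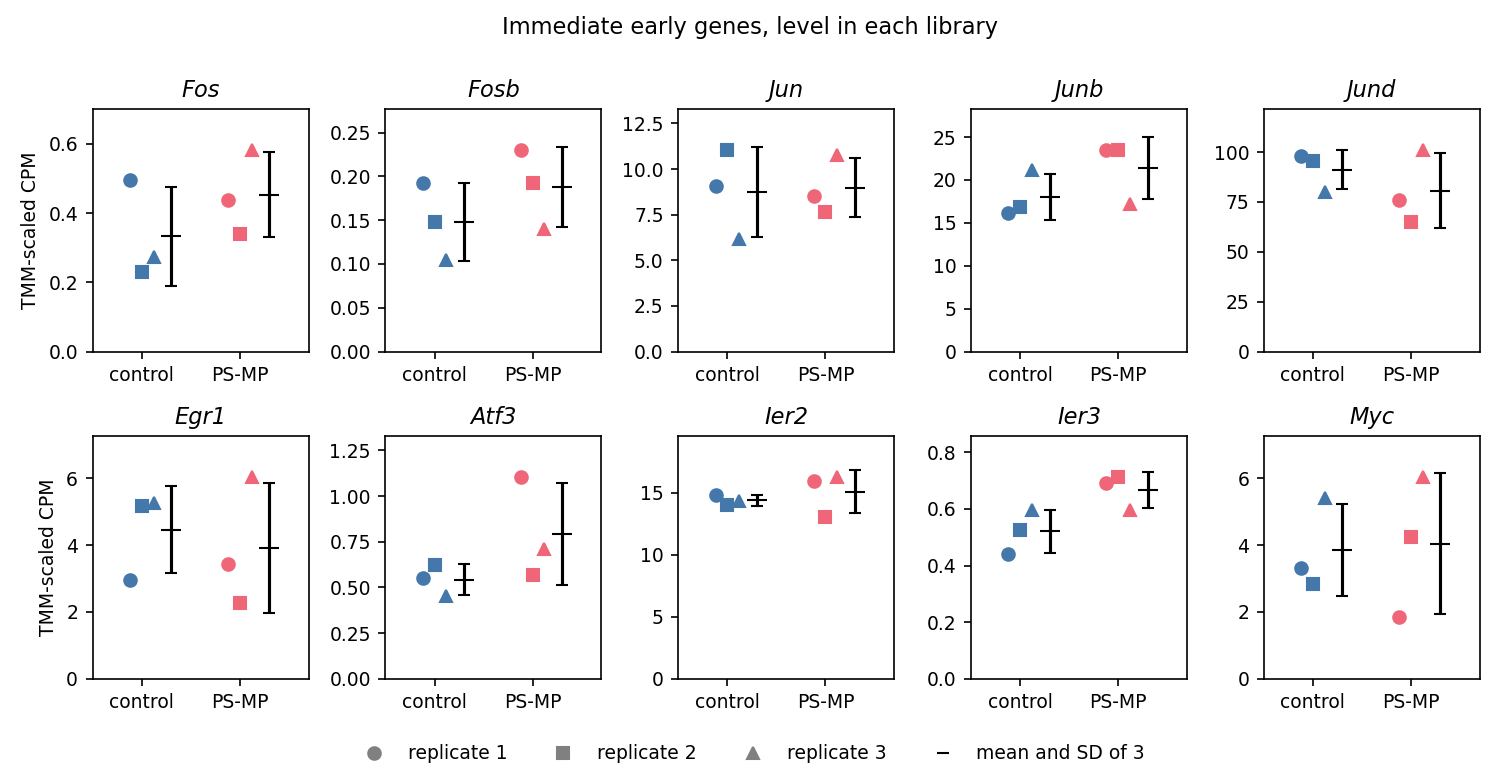
Level of the 10 immediate early genes in each library, in TMM-scaled CPM on axes that start at 0, with control in blue, PS-MP in red, the marker shape giving the replicate and the black bar the mean and SD of 3 libraries. The diets overlap for every gene except Ier3, where the lowest PS-MP and the highest control library are at 0.596 CPM.

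None of the 10 genes passed the comparison of PS-MP with control. With edgeR 0 of 10 were called, where 0.0113% of the 17662 genes tested were called (2 genes, both higher). DESeq2 and limma-voom also called 0 of 10, and 0 of 10 had an unadjusted p under 0.05 with edgeR, against 5.38% of all genes. The 10 log2 fold changes ran from -0.19 to 0.55, with 8 above zero and a median of 0.16, beside a median of 0.02 and 52.8% above zero over all genes tested. Without PS-MP replicate 3 the median of the 10 was 0.10 and 5 of 10 were above zero, and with library size as the only scaling 10 of 10 were. Libraries did not overlap between the diets for 1 of 10 (Ier3, higher in PS-MP), against 11.2% of all genes, of which 6.24% were higher and 4.99% lower. The 95% interval lay inside a 2-fold change either way for 5 of 10 (Jun, Junb, Jund, Ier2 and Ier3), against 53.6% of all genes. These shares lie near those of all genes, apart from the 8 of 10 above zero, which has no test because the genes share their libraries.

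**Figure D2:**
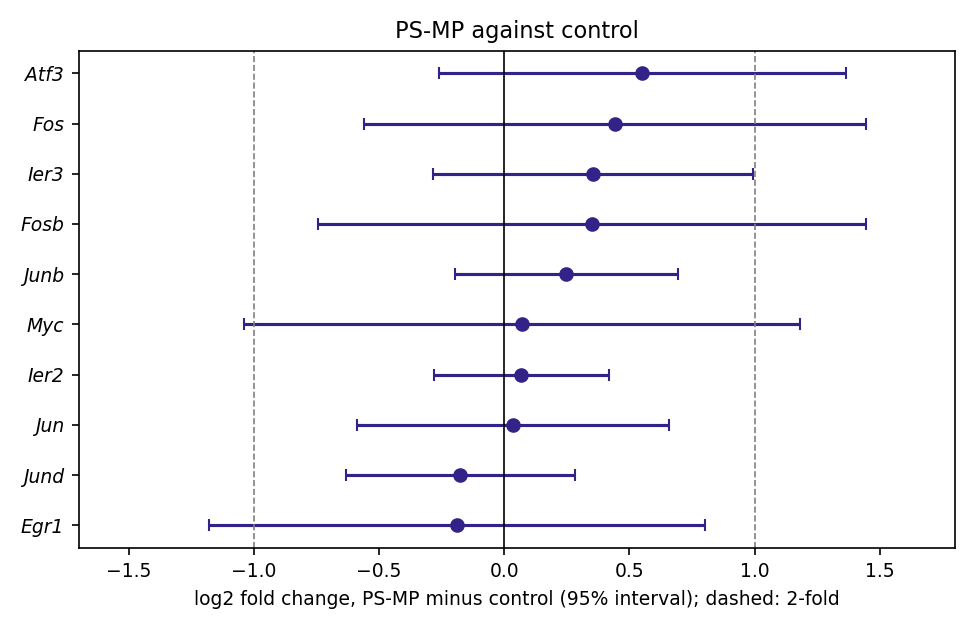
Log2 fold change (PS-MP minus control) of each gene with its 95% interval from the edgeR quasi-likelihood fit, the dashed lines marking 2-fold. Every interval crosses zero, the intervals of Ier2 and Junb are the narrowest, and that of Myc, from -1.04 to 1.18, crosses both dashed lines.

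The spread within a diet was ordinary for this set as a whole and differed by gene. The SD of log2 CPM (prior count 2) had a median over the 10 genes of 0.301 on normal chow and 0.322 in PS-MP, beside 0.315 and 0.285 over all genes tested. Without control replicate 1, 2 or 3 the control median was 0.209, 0.344 or 0.165. Without PS-MP replicate 1, 2 or 3 the PS-MP median was 0.333, 0.306 or 0.187. These medians rest on fewer libraries, and the same was not computed for all genes. Pooled over both diets, Myc had an SD of 0.702, larger than that of 80.9% of the genes tested, and Egr1 0.602, larger than that of 75.4%. At the other end, Ier2 had 0.127 (percentile 8.88) and Ier3 0.175 (percentile 18.8). In control, Ier2 had an SD of 0.0443, at percentile 1.95 of all genes. The SD was larger in control than in PS-MP for 4 of 10 genes, namely Fos, Fosb, Jun and Ier3, against 56.6% of all genes.

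For the genes of few reads the spread was set beside the counting error, taken as the coefficient of variation that a Poisson count of that mean would have. Fosb in control varied by 30.0% where counting gives 29.7%, and in PS-MP by 24.2% where counting gives 25%. Ier3 varied by 14.9% and 9.42% where counting gives 15.4% and 13.3%. Atf3 in control varied by 15.7% against 15.4%, but in PS-MP by 35.1% against 12.2%. Fosb, Ier3 and control Atf3 thus varied about as much as counting alone gives, or less. Fos varied by 42.7% on normal chow and 27.1% in PS-MP, against 19.5% and 16.1% from counting. Myc varied by 35.7% and 51.9% and Egr1 by 29.4% and 49.5%, against counting errors between 5.26% and 5.52% in both diets, so their spread was well above that of counting.

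**Figure D3:**
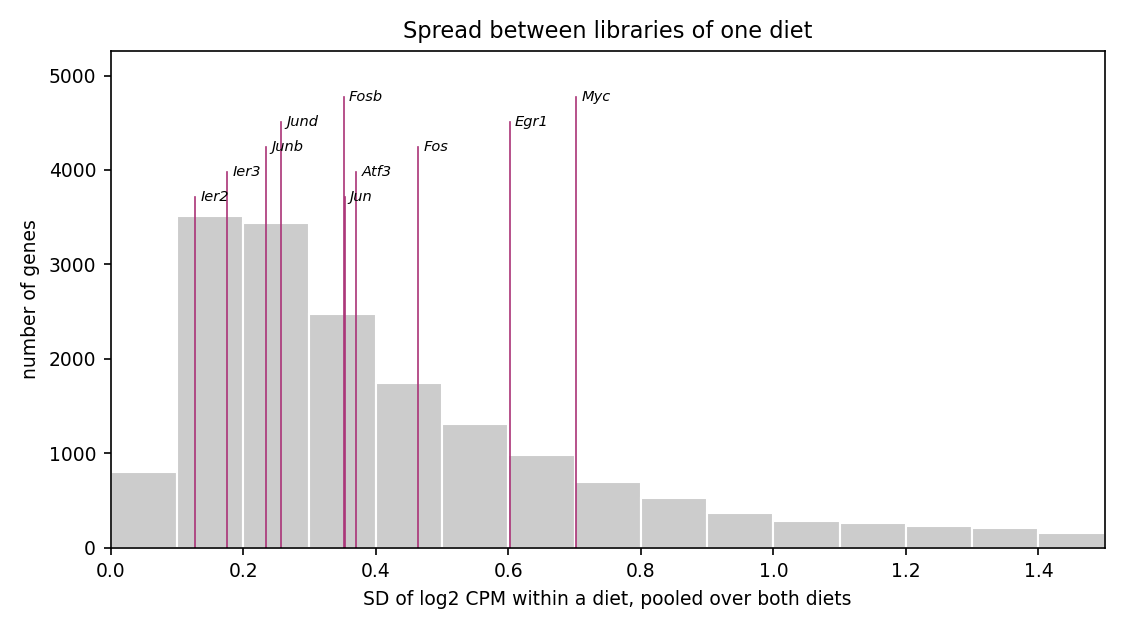
Number of genes (grey bars, 17662 in all, with the 647 genes above 1.5 beyond the axis) by SD of log2 CPM within a diet, pooled over control and PS-MP, with a line for each of the 10 immediate early genes. Ier2 at 0.127 and Ier3 at 0.175 sit on the left of the distribution, and Egr1 at 0.602 and Myc at 0.702 on its right flank.

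The 10 genes did not move as one block between libraries. PS-MP replicate 3 was the highest library for 5 of 10 (Fos, Jund, Egr1, Ier2 and Myc), PS-MP replicate 1 for 3 (Fosb, Junb and Atf3), PS-MP replicate 2 for Ier3 and control replicate 2 for Jun. The mean log2 CPM of the set was 1.60, 1.58 and 1.56 on normal chow and 1.72, 1.56 and 1.90 in PS-MP. Control libraries were thus within 0.04 of each other, and PS-MP replicate 3 stood highest while PS-MP replicate 2 lay among the controls. In PS-MP replicate 1, Atf3 was 0.76 above its own mean on the log2 scale while Myc was 0.97 below its own. In PS-MP replicate 2, Egr1 was 0.80 below its mean while Junb and Ier3 were 0.27 above theirs. Fos and Atf3, which share the TGACGT letters shown above, lay on the same side of their own means in 5 libraries, among them PS-MP replicate 1 (0.21 and 0.76) and control replicate 3 (-0.42 and -0.48). In control replicate 1 they lay on opposite sides, Fos 0.38 above and Atf3 0.21 below. Ier2, whose promoter was not at hand, lay on the same side as Fos in every library. Whether the shared letters bear on these levels was not tested.

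Nr4a1 was highest, and the clock genes Dbp and Per1 were lowest, in PS-MP replicate 3. Nr4a1, an orphan receptor gene and itself an immediate early gene, stood at 0.702, 1.48 and 0.643 CPM on normal chow and 1.65, 0.770 and 11.7 CPM in PS-MP. PS-MP replicate 3 was the only library above 2 CPM, and the log2 fold change of 2.32 (SE 1.02, 95% interval -0.12 to 4.76) did not pass (edgeR adjusted p = 0.923). Dbp, a clock output gene of strong daily rhythm, stood at 2.01, 2.23 and 44.3 CPM on normal chow and 35.7, 78.2 and 0.911 CPM in PS-MP. Control replicates 1 and 2 were thus low for Dbp as well, and PS-MP replicate 3 did not stand alone as it did for Nr4a1. Per1, a clock gene that is also an immediate early gene, stood at 15.5, 5.01 and 3.90 CPM on normal chow and 14.9, 23.8 and 1.32 CPM in PS-MP. Both clock genes were lowest in PS-MP replicate 3 and highest in PS-MP replicate 2, the libraries in which Egr1 was highest and lowest. Among the controls, replicate 3 had the highest Egr1 (5.26 CPM) with the highest Dbp (44.3 CPM) but the lowest Per1 (3.90 CPM). The labels used here give no time of day, and the part of clock phase in the levels of these genes was not tested.

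**Figure D4:**
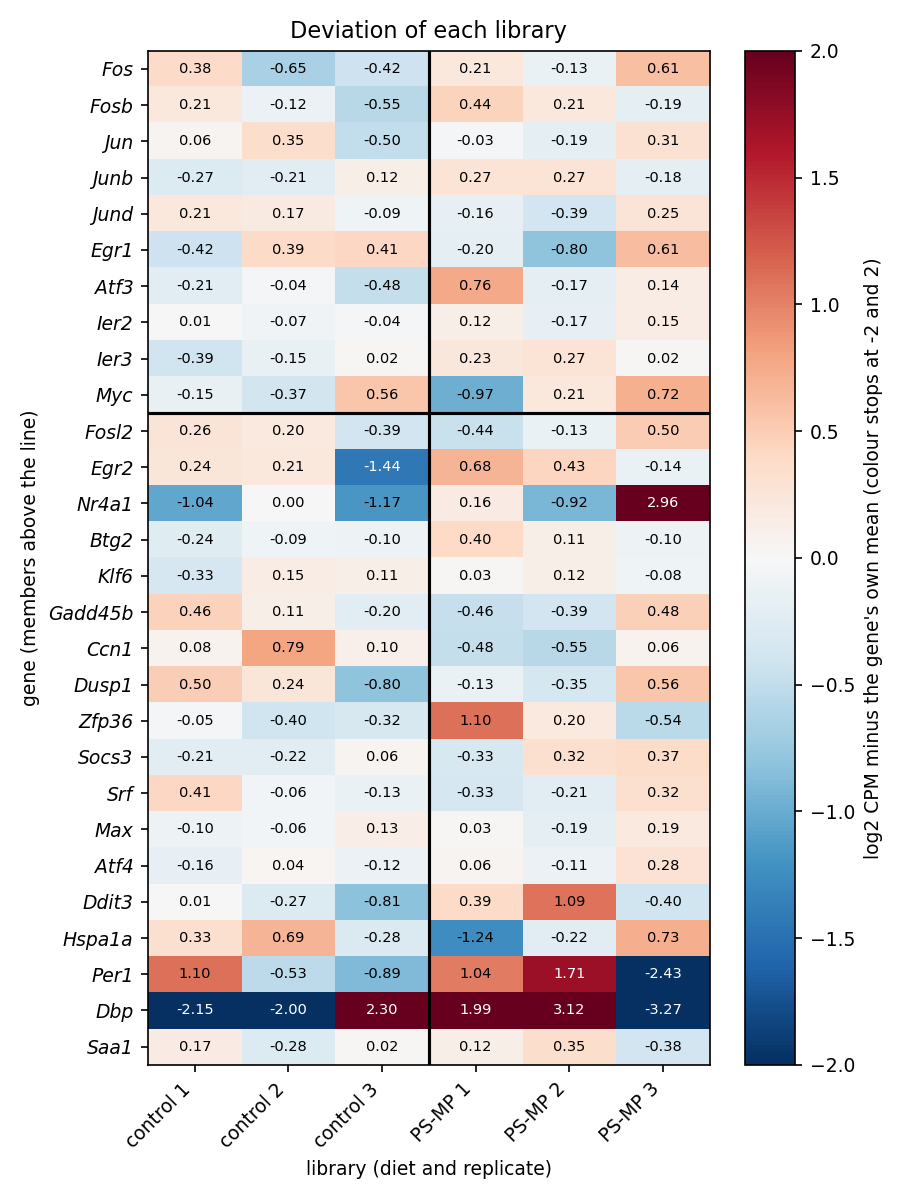
Log2 CPM of each gene minus its own mean over the 6 libraries, for the 10 immediate early genes (above the line) and 18 related genes (below it), with the value printed in each cell and colours stopping at -2 and 2. PS-MP replicate 3 has the highest Nr4a1 (2.96) and the lowest Dbp (-3.27), and no library is red or blue for all 10 genes.

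On 11 related lists of early response, stress and clock genes, edgeR called 0 of the 167 genes tested, with 10 at an unadjusted p under 0.05, where 5.38% of all genes were. By limma-voom 0 of them passed. By DESeq2 4 did, Mafg, Plk3 and the chemokine gene Cxcl1 being higher in PS-MP and the other lower. Over all 17662 genes DESeq2 called 187, with 62 higher and 125 lower. Of the other AP-1 genes and their bZIP partners, 12 of 13 were tested, 7 were above zero and the median log2 fold change was 0.11. Fosl2, an AP-1 member of slower induction, stood at 5.78 to 9.02 CPM on normal chow and 5.55 to 10.7 CPM in PS-MP. Fosl1 had 0 counts in all 6 libraries, which allows up to 0.0493 CPM in the shallowest by a floor of 3 counts. Mafg, a small MAF partner chosen here for the smallest p of its list, stood at 13.7, 11.1 and 10.8 CPM on normal chow and 20.3, 23.7 and 24.1 CPM in PS-MP, without overlap (log2 fold change 0.94, SE 0.16, adjusted p = 0.767).

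Among the other EGR and NR4A genes, 7 of 8 were tested, 5 were above zero and the median was 0.60, with Egr2 at 0.0567 to 0.234 CPM on normal chow and 0.175 to 0.328 CPM in PS-MP. Of 29 further early genes, 28 were tested, with 18 above zero and a median of 0.09. In that list Btg2, which slows growth, had a log2 fold change of 0.29 (SE 0.19), Klf6 0.03, Gadd45b -0.20 and the matrix protein gene Ccn1 -0.66 (SE 0.28). Plk3, a stress kinase gene with the smallest p of the list, stood at 17.1, 19.3 and 18.9 CPM on normal chow and 31.5, 34.4 and 74.2 CPM in PS-MP. Its groups did not overlap, PS-MP replicate 3 was again highest, and it did not pass (log2 fold change 1.34, SE 0.34, adjusted p = 0.767).

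The brakes on the response were mixed in direction. All 20 feedback inhibitors were tested, 11 above zero and 9 below, with a median of 0.03. Dusp1, the phosphatase that switches off MAP kinases, stood at 9.89, 8.26 and 3.998 CPM on normal chow and 6.39, 5.47 and 10.3 CPM in PS-MP, with a log2 fold change of 0.00 (SE 0.39). Zfp36, which speeds the decay of AU-rich messages, ranged from 32.5 to 41.5 CPM on normal chow and from 29.4 to 92.2 CPM in PS-MP, so that PS-MP replicate 1 was highest and PS-MP replicate 3 lowest. Socs3, an inhibitor of cytokine signals, had a log2 fold change of 0.27. Trib1, with the smallest p on the higher side, had 0.61 (SE 0.14, adjusted p = 0.767).

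Upstream, 23 of 23 kinases and SRF, TCF and CREB factors were tested, 16 of them below zero, with a median of -0.06. Srf stood at 4.45 to 6.51 CPM on normal chow and 3.89 to 6.12 CPM in PS-MP.

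Partners and targets of MYC stayed close to zero as lists. The network list had 7 of 12 genes above zero and a median of 0.02, with Max, the obligate partner of MYC, at 9.28 to 10.9 CPM on normal chow and 8.73 to 11.4 CPM in PS-MP. The growth targets had 7 of 14 above zero and a median of 0.02. On the stress side, 13 of 14 genes around ATF3 and the integrated stress response were tested, 9 above zero, with a median of 0.07. Atf4 had a log2 fold change of 0.16 (SE 0.14) and Ddit3, the gene of CHOP, 0.87 (SE 0.51) from a control mean of 0.237 CPM. Heat shock genes, which respond to handling and heat, had 7 of 10 below zero and a median of -0.12, with Hspa1a at 1.39 to 2.74 CPM on normal chow and 0.704 to 2.84 CPM in PS-MP. The acute phase list had a median of 0.11, and Saa1 had a log2 fold change of 0.08 (SE 0.24).

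**Figure D5:**
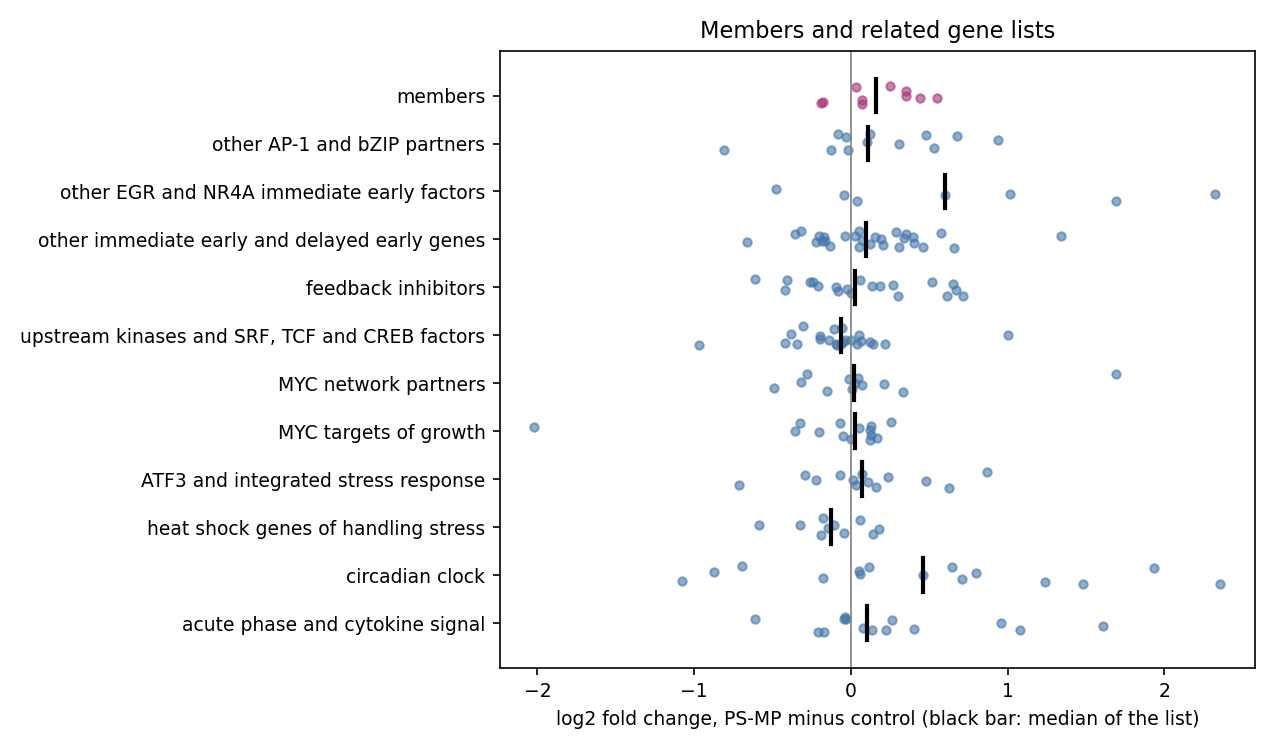
Log2 fold change (PS-MP minus control) of each gene tested, 1 point per gene, for the 10 immediate early genes (purple) and 11 related lists (blue), with a black bar at the median of each list and the vertical scatter without meaning. Most medians lie between -0.12 and 0.16, and the lists of EGR and NR4A factors (0.60) and of clock genes (0.46) lie to the right.

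Liver is a mixture of cells, and in bulk tissue fewer cells of a type and less RNA per cell cannot be told apart. Immediate early genes are also expressed outside hepatocytes. Markers of Kupffer cells and macrophages were above zero for 11 of 11 genes, against 52.8% of all genes tested. Their summed level was 173 to 202 CPM on normal chow and 230 to 267 CPM in PS-MP. Of these 11 genes edgeR called 0 (2 at an unadjusted p under 0.05), limma-voom 0 and DESeq2 1, the scavenger receptor gene Marco. Over all 71 marker genes tested edgeR called 0 (9 at an unadjusted p under 0.05), limma-voom 0 and DESeq2 3. These 3 were Marco and the neutrophil gene S100a9, both higher in PS-MP, and the adipocyte hormone gene Retn, lower. Of all 17662 genes, 5.38% had an unadjusted p under 0.05 with edgeR and DESeq2 called 187. Clec4f, a defining Kupffer cell marker, overlapped between the groups at 24.98 to 34.3 CPM on normal chow and 24.2 to 41.0 CPM in PS-MP. Neutrophil markers summed to 1.47 to 2.05 CPM on normal chow and 2.82 to 7.65 CPM in PS-MP, with the defining marker Ly6g at 0 counts in all 6 libraries. Red cell markers summed to 263 to 504 CPM on normal chow and 571 to 848 CPM in PS-MP. Endothelial markers were likewise above zero for 10 of 10 genes. They summed to 102 to 114 CPM on normal chow and 107 to 157 CPM in PS-MP, with the highest value in a PS-MP library. The summed levels of the stellate cell, cholangiocyte, lymphocyte and adipocyte lists overlapped between the diets. In the adipocyte list Retn had 18, 11 and 35 counts on normal chow and 0 in each PS-MP library. Plin1, Adipoq and Lep, which the filter on low counts removed, had 41, 20 and 10 counts in PS-MP replicate 3. Elsewhere they had 0 counts, apart from 2 of Adipoq in control replicate 3. Cidec, Cfd and Fabp4 overlapped between the diets. The part of these cells in the levels of the 10 genes was not tested.

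The genes most like Fos over the 6 libraries were sought among 11477 other genes of at least 1 CPM, by the root mean square difference of centred log2 CPM. Rnf216 was nearest at 0.0737, followed by Slc4a2 at 0.122, C2cd2l at 0.144, Ggt5 at 0.159 and Gas2l1 at 0.163. The median gene was 0.509 away. These genes are the closest of 11477, and Fos itself had only 14 to 50 counts per library. Whether they vary with Fos beyond its counting error was not tested. Of the other immediate early genes Ier2 was nearest to Fos at 0.374, and the rest lay between 0.434 and 0.710. A flat profile would be 0.443 from Fos, so only Ier2, Fosb and Jund were closer to it than a gene that did not vary. The mean profile of the 10 genes was itself nearly flat, at 0.122 from no variation, and its nearest genes were U2af2, Kdm2a, Mthfsd, Tinagl1 and Kank3 at 0.0475 to 0.0504.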

How the data were processed

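The deposited files hold whole-number read counts per gene symbol for 6 liver libraries, unnormalised by their values. Per the submitters' processing notes, bcl2fastq was used and the build was GRCm39; for the aligner, counter, annotation and strand setting the sources used here give nothing. Rows of 1 symbol were added together (67 symbols had several rows). Symbols of low count were removed (filterByExpr of edgeR 4.0.16, by diet, in R 4.3.3), counts were scaled by TMM, and PS-MP was set against control in edgeR's quasi-likelihood test, diet being the one term, with Benjamini-Hochberg adjustment over 17662 genes and a threshold of 0.05. Intervals use the moderated degrees of freedom (median 6.63). The genes and lists were chosen with earlier results of these data known. Named were all 10 genes, 19 list genes whatever their values, and genes of smallest p in a list, of which 1 is not reported here. Alternatives were other scalings, filters and prior counts, DESeq2 1.42.0, limma-voom (limma 3.58.1), the replicate number as a block, removal of ribosomal and mitochondrial genes, and leaving out each library. In simulated counts for this comparison (17221 genes), edgeR called 39 of the 97 genes given a 4-fold change, 1 of the 97 given a 2-fold change, and 3 genes given none.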

Additional observations from a re-analysis of the deposited data

How the results depend on the processing

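Of 146 fold changes of single genes recomputed under the alternatives, 135 kept their direction and all 146 stayed short of the threshold (smallest adjusted p 0.530, with library size only). The other 11 changed sign, and the cause was not tested. With library size only, which moved the median of all genes by 0.21, Jund was at 0.034 and Egr1 at 0.024. In that setting the median of the 10 genes was 0.37, and 3 did not overlap between diets, against 19.1% of all genes. Myc was at -0.064 with limma-voom and -0.023 with the replicate block. With each library left out in turn, Myc ranged from -0.35 to 0.42, Jun from -0.16 to 0.24, Egr1 from -0.66 to 0.091 and Ier2 from -0.0016 to 0.165. The sign changes came without PS-MP replicate 3 (Myc, Jun, Ier2), control replicate 1 or 2 (Myc), control replicate 3 (Jun) and PS-MP replicate 2 (Egr1). The count of the 10 genes without overlap was 0 with no filter (9.01% of all genes). It was also 0 with the filter of 1 CPM in 3 libraries (10.6% of all genes), which left 6 of the 10. With a library left out it was 1 to 3, where 17.3% to 29.2% of all genes did not overlap. Genes called over the whole table numbered 187 with DESeq2 (62 higher, 125 lower), 1 with limma-voom, 0 with the replicate block and 0 to 4 with a library left out. Replicate numbers are shared between diets, but same-numbered libraries deviated together with r of 0.108, 0.139 and -0.129 across genes, so the block rests on a number only. Depth limits what can be seen for Fosb (82 counts over all libraries), whose spread within each diet was about that of counting.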
